A study of Mus musculus with 52 samples.

Results

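The clustered protocadherins are the protein-coding genes on mouse chromosome 18 between 36.9 and 37.9 Mb (build mm10, GENCODE M21) whose symbols begin with Pcdha, Pcdhb or Pcdhg. The rule found 57 members among 21866 protein-coding genes: 14 in the alpha cluster, 22 in the beta cluster and 21 in the gamma cluster. All ChIP-seq peaks between 36.7 and 38.1 Mb were taken from 8 peak lists and assigned to a member promoter (within 1 kb of a transcript start), a member exon, an interval inside a cluster or a flank. The alpha members spanned chr18:36930184-37187661, the beta members chr18:37264938-37524479 and the gamma members chr18:37661793-37841873, all on the forward strand.

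Clustered protocadherins are cell-adhesion proteins that give neurons a surface identity used in self-recognition. Each alpha and gamma gene has its own variable first exon and promoter, spliced to constant exons shared by its cluster, whereas the beta genes have single coding exons. CTCF, an insulator protein, and cohesin, the ring complex that holds chromatin loops and of which Rad21 is a subunit, are known to bind many of these promoters and to bring a chosen promoter to a distant enhancer. SmcHD1 is a non-canonical SMC protein that is known to keep clustered protocadherins silent and that is abundant on the inactive X chromosome.

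The data came from clonal female mouse embryonic fibroblasts (MEFs) of an F2 cross between M.m.domesticus FVB and M.m.Castaneus. The wild-type (wt) lists came from clone Wt2A1, the germline SmcHD1 null (mut) lists from clone Mut5A6, which carries the germline mutation MommeD1, and the somatic knockout (somKO) lists from the CRISPR clones A3-3 and D4 together. Per the study's methods the knockout clones were made in another wt line, wt1A2, so that somKO and wt differed in clone as well as in SmcHD1, and wt and mut are a single clone each whose autosomes are strain mosaics. Copy number of the chromosomes also differed between lines per the methods, so that SmcHD1 state, clone, strain mosaic and copy number cannot be told apart here.

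Each list merged the libraries of a group: 3 in wt and 3 in mut for SmcHD1, 3, 3 and 4 in wt, mut and somKO for CTCF, and 2, 2 and 4 for Rad21. The SmcHD1 lists held 6993 peaks in wt and 244 in mut, the CTCF lists between 57798 and 69736 peaks and the Rad21 lists between 66031 and 89974. With 1 list per group there was no replicate error and no test was possible, read depth was unknown, and the intervals given below (95% Wilson) cover counting error only. Peak strength is given as a percentile, the rank of a peak by its deposited score within its own list, with 100 the strongest. In a bulk sample, fewer cells with a bound site and less signal per cell cannot be told apart. Peaks of the same list are not replicates, and mut and somKO were both set against the same wt list.

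In wt cells the alpha promoters were listed with CTCF but almost without cohesin. CTCF peaks lay at 12 of 14 alpha promoters in wt, 13 in mut and 13 in somKO, whereas Rad21 peaks lay at 1, 14 and 10 of them. As shares of the 14 alpha promoters these are 7.14% in wt (interval 1.27 to 31.5%), 100% in mut (78.5 to 100%) and 71.4% for somKO (45.4 to 88.3%). The only alpha promoter with Rad21 in wt was that of Pcdha9, with a peak at percentile 53.8. The map of listed peaks shows the alpha cluster almost empty in the wt Rad21 list and filled in both lists from SmcHD1-deficient cells.

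**Figure D1:**
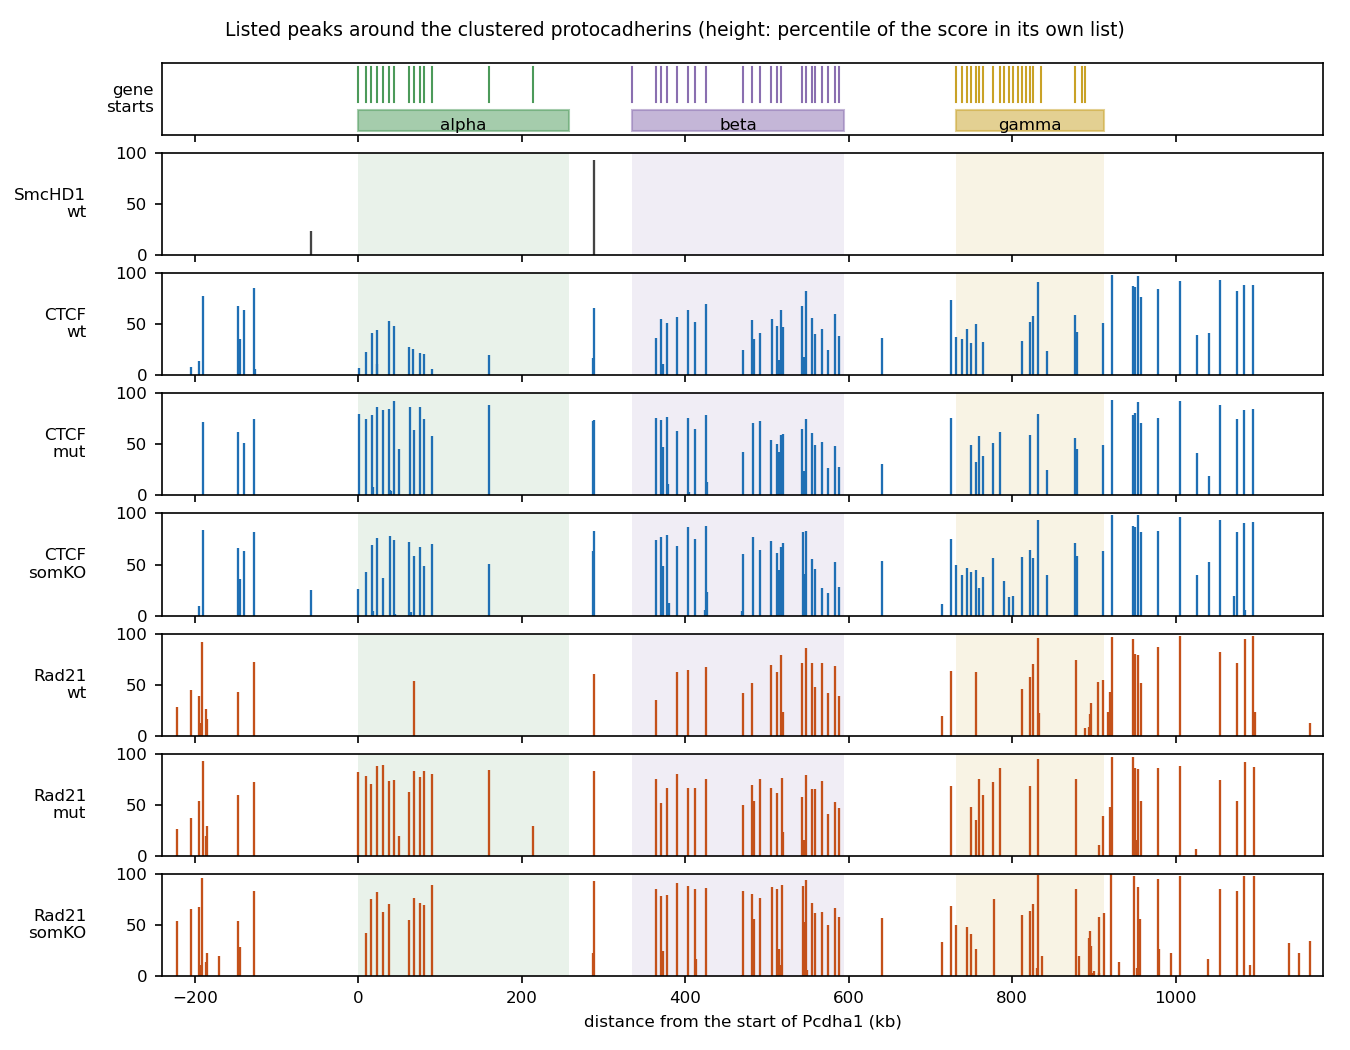
Listed peaks by distance from the start of Pcdha1 (kb), a row for each list; the height of a line is the percentile of the peak's score in its own list, ticks in the top row are member starts, and shading marks the clusters. Within the alpha cluster the wt Rad21 list holds 1 peak, the mut list 15 and the somKO list 10; the SmcHD1 mut list holds no peak here and is not drawn.

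The background over all protein-coding genes was read beside these counts. A Rad21 peak lay at 51.1% of all promoters in wt, 55.7% in mut and 56.7% in somKO, so that the interval of the alpha promoters lay below that share in wt, above it in mut and around it in somKO. Of the 13 alpha promoters without Rad21 in wt, 13 had it in mut and 9 in somKO. Over all genes without a wt Rad21 peak, 14.6% had a Rad21 promoter peak in mut and 13.3% in somKO. Promoters that held CTCF but no Rad21 in wt give a closer background, and of those 47.8% had Rad21 in mut and 54.2% in somKO. The alpha cluster had 11 such promoters, and Rad21 was listed at 11 of them in mut and at 8 in somKO. These counts are small and no interval was computed for them, so a difference from this closer background was not tested.

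Pcdha4 and Pcdha5 were among the members with the highest Rad21 ranks in mut. At Pcdha4 the Rad21 peak ranked at percentile 88.0 in mut and 82.9 in somKO, with none in wt. Pcdha5 was the only alpha gene at which both proteins were absent in wt and present in the other genotypes: CTCF ranked at percentile 83.9 in mut and 36.8 in somKO, and Rad21 at 89.2 and 62.5. Pcdha12, the last of the regular alpha genes, had its strongest Rad21 peak in somKO, at percentile 89.1 against 80.0 in mut. Pcdha1, the first alpha gene, had Rad21 in mut alone, at percentile 82.2.

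The C-type alpha genes, Pcdhac1 and Pcdhac2, differ from the others in that neurons use them broadly and not by stochastic choice. The percentile of CTCF at Pcdhac1 was 19.8 for wt, 87.9 for mut and 50.5 for somKO, and Rad21 was listed there only by mut, at 84.2. At Pcdhac2 no list held a CTCF peak, and the sole Rad21 peak, in mut, ranked at percentile 29.6. Pcdha7 completed the 4 alpha promoters without Rad21 in somKO, which were those of Pcdha1, Pcdha7, Pcdhac1 and Pcdhac2.

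The rank of CTCF at the alpha promoters also moved. In wt their CTCF peaks ranked between percentile 6.56 and 52.9, with a median of 24.4. In mut the range was 58.3 to 92.2 with a median of 83.9, so that the wt and mut values did not overlap. In somKO the range was 25.7 to 78.3 and the median 67.2, and the range overlapped that of wt. CTCF was therefore listed at these promoters in wt, but low in its list.

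Each of the 12 alpha promoters with CTCF in wt ranked higher in mut, by 31.5 to 72.6 percentile points with a median of 51.6. Over the 6288 promoters of all genes listed in both, the median change was 2.28 points, and 9.83% of promoters were at least 20 points above wt. In somKO the same 12 promoters were higher by 18.6 to 63.0 points, with a median of 29.1, and 11 of the 12 by at least 20 points. The share of all 6457 promoters listed in both wt and somKO that were at least 20 points above wt was 5.36%. Pcdha1 rose most in mut, by 72.6 points, and Pcdha12 rose most in somKO, by 63.0 points. These ranks were not replicated, and the peaks at the alpha promoters come from neighbouring, related genes of the same chromosomal segment. The background over all genes was not matched for rank in wt. The alpha promoters started low, at a median of 24.4, where a rank has more room to rise than to fall.

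**Figure D2:**
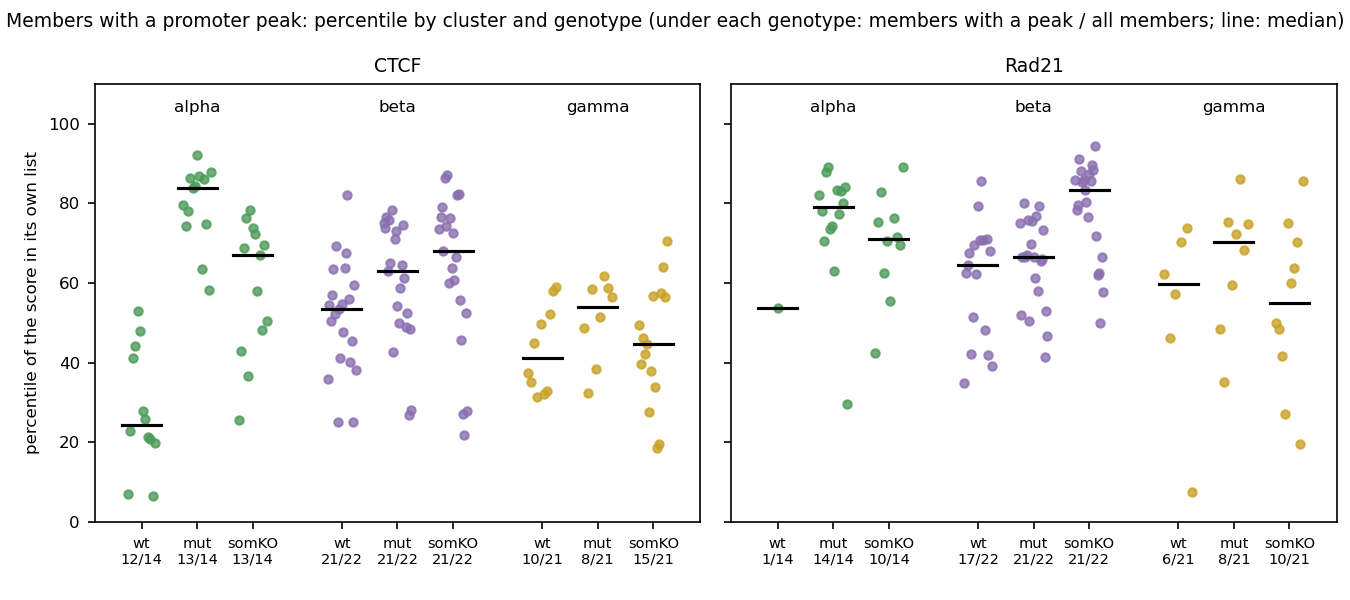
Percentile of the best-ranked peak at each member promoter for CTCF (left) and Rad21 (right), by cluster and genotype; a point is a member with a peak, a line is the median, and the fractions give members with a peak over all members of the cluster. CTCF at alpha promoters sits below 53 in wt and above 58 in mut, while Rad21 at alpha promoters has a single wt point.

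The CTCF peaks at alpha promoters were also broader. Their median width was 266 bp in wt, 1380 bp in mut and 1440 bp in somKO, against medians of 443, 471 and 462 bp over the whole lists. In wt their midpoints lay either between -123 and -52 bp or between 331 and 625 bp from the transcript start, and only Pcdha4 had a peak of each kind. At Pcdha1, for example, the wt peak of 261 bp lay downstream of the start and the mut peak of 1738 bp spanned it. Alpha genes are known to carry a CTCF site at the promoter and another in the variable exon.

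A SmcHD1 peak lay beyond the alpha cluster and not at any member. Of 42 wt SmcHD1 peaks on chromosome 18, 2 fell in the window studied and none at a promoter, exon or interval of the clusters. The stronger was chr18:37217741-37218397, of 657 bp, at percentile 92.5 and rank 521 of the 6993 wt peaks. It lay in no protein-coding gene, 30.1 kb past the end of the alpha cluster and 46.5 kb before Pcdhb1, the nearest member start. The other, chr18:36872022-36872295, lay 57.9 kb before Pcdha1 at percentile 23.2. The mut SmcHD1 list held 7 peaks on the chromosome and none in the window. Over all genes, 5.39% of promoters had a SmcHD1 peak in wt and 0.348% in mut. For the 57 members the wt interval was 0 to 6.31%, which included the share of all genes. These are narrow peaks, and a broad low domain of SmcHD1 need not appear in such a list. The paper reports SmcHD1 enrichment at the protocadherin locus of this chromosome, shown as binned ratios of ChIP to input. Such ratios are another measure than listed peaks and were not examined here.

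The same stretch between the clusters carried a pair of CTCF sites. The wt SmcHD1 peak overlapped the wt CTCF peak chr18:37218256-37218748 and the wt Rad21 peak chr18:37218286-37218718. The wt CTCF peak at that site ranked at percentile 65.3, against 73.9 for mut and 82.8 for somKO. The neighbouring CTCF site, chr18:37217417-37217703 in wt, ranked at 16.8 in wt, 72.7 in mut and 63.6 in somKO. The wt Rad21 peak, over the first of these sites alone, ranked at 60.03. A single Rad21 peak reached over both sites in each other genotype, at percentile 83.4 for mut and 93.0 for somKO. Each of these 3 ranks was lowest in wt. An alpha enhancer called HS5-1 is known to lie between the alpha constant exons and the beta genes, but its position was not given in the sources used here and no peak was assigned to it.

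Pooled over the rest of the window, the stretches between clusters and the weaker site above included, the median percentile of the CTCF peaks was 75.2 in wt over 26 peaks, 74.9 in mut over 21 and 77.9 in somKO over 28. Some of the strongest peaks lay past the gamma cluster, where enhancers of the beta and gamma genes are known to lie. In an intron of Diaph1, at chr18:37852070-37852769 in wt, CTCF ranked at percentile 97.9 in wt, 93.6 in mut and 98.3 in somKO. At that site Rad21 ranked at 97.1, 96.7 and 99.5.

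The beta promoters were occupied in every genotype. CTCF lay at 21 of 22 beta promoters whatever the genotype, and Rad21 at 17 in the wt list and at 21 in each of the others. Pcdhb1, the first beta gene, had neither protein in any list. Its absence left Pcdhb2 to Pcdhb22, which carried CTCF in all genotypes. Over all genes a CTCF promoter peak was listed for 30.8% in wt, 36.5% in mut and 35.3% in somKO. For Rad21 the shares over all genes were 51.1%, 55.7% and 56.7%.

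At 4 beta promoters Rad21 was absent in wt and present in both other genotypes. These were Pcdhb3, Pcdhb4, Pcdhb7 and Pcdhb11, all in the part of the cluster nearer to the alpha genes. At Pcdhb3 Rad21 ranked at percentile 51.9 in mut and 78.4 in somKO, and at Pcdhb7 it ranked at 66.9 and 85.4. These 4 were the beta promoters with CTCF and no Rad21 in wt. Over all genes, 47.8% of such promoters had Rad21 in mut and 54.2% in somKO. No interval was computed for this set of 4 promoters. All 17 beta promoters with Rad21 in wt kept it in mut and in somKO. Among all promoters with Rad21 in wt, 4.80% lacked it in mut and 1.61% in somKO. The strongest in wt was Pcdhb16, at percentile 85.7 for Rad21 and 82.0 for CTCF.

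The beta cluster split by position, a division into the first and the last 11 members that was made after the values were seen and has no test. From Pcdhb2 to Pcdhb11 the CTCF percentile was higher than in wt at 10 of 10 promoters in mut, with a median of 17.6 points, and at 10 of 10 in somKO, with a median of 22.7. From Pcdhb12 to Pcdhb22 it was higher at 5 of 11 in mut, with a median of -0.39 points, and at 6 of 11 in somKO, with a median of 0.364. Over all genes with CTCF in both lists, 63.4% of promoters ranked above wt in mut and 76.3% in somKO. For Rad21 in mut, 6 of 6 promoters were higher in the first part and 3 of 11 in the last, and in somKO 6 of 6 and 9 of 11. Over all genes 67.5% of promoters with Rad21 in both lists ranked above wt in mut and 88.4% in somKO. With lists cut to equal length, an alternative chosen after seeing the data, the first part was again higher at 10 of 10 (CTCF) and 6 of 6 (Rad21) promoters in both genotypes. The last part then had CTCF medians of 1.49 points in mut and -3.07 in somKO, both of changed sign. Over all genes, 15.9% of promoters with Rad21 in both lists were at least 20 points above wt in mut and 21.0% in somKO, and the beta cluster had 1 and 6 of 17.

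Pcdhb2, the first beta gene with a peak, had the largest rise of CTCF rank in the cluster, from percentile 36.0 in wt to 75.2 in mut and 73.6 in somKO. Its Rad21 peak moved from 34.8 in wt to 75.0 and 85.8. Pcdhb22, the last beta gene, moved the other way for CTCF, from 38.2 in wt to 28.1 in mut and 28.0 in somKO. Its Rad21 peak ranked at 39.2, 46.7 and 57.8.

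**Figure D3:**
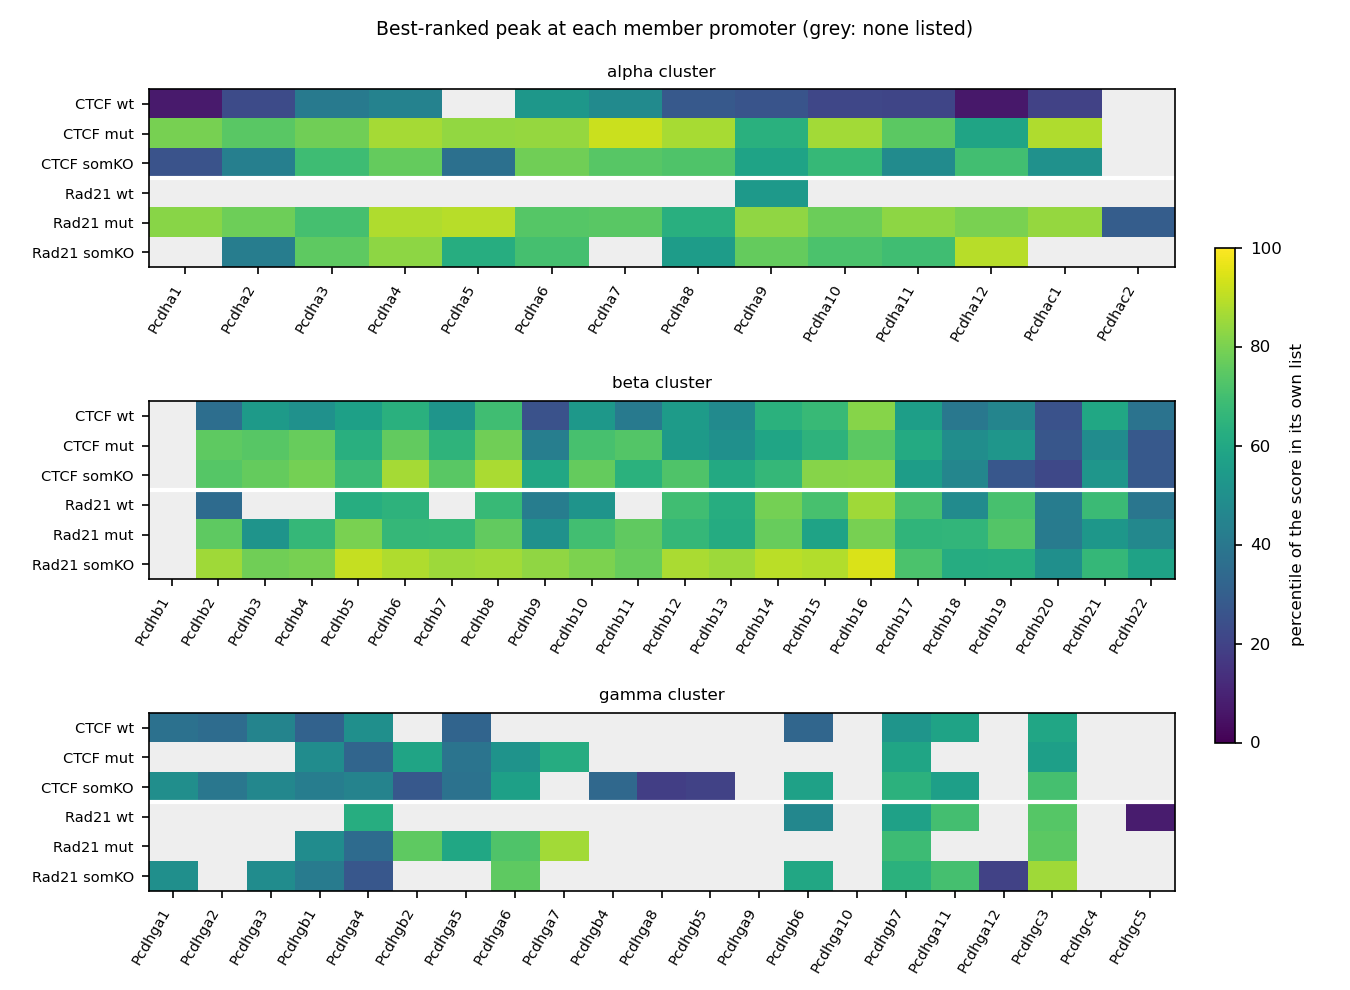
Percentile of the best-ranked peak at each member promoter, with members in chromosomal order from left to right and lists in rows; grey cells have no listed peak. The row of wt Rad21 is grey at 13 of 14 alpha members, the beta members are filled from Pcdhb2 to Pcdhb22 for CTCF in all rows, and gamma members differ from row to row.

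The gamma promoters varied from list to list. Of 21 gamma promoters, 10 carried CTCF in wt against 8 in mut and 15 for somKO, and the counts for Rad21 were 6, 8 and 10. For CTCF these are 47.6%, 38.1% and 71.4%, against 30.8%, 36.5% and 35.3% of all genes. For Rad21 they are 28.6%, 38.1% and 47.6%, against 51.1%, 55.7% and 56.7% of all genes. The gamma interval included the share of all genes for CTCF in wt (28.3 to 67.6%) and mut, and for Rad21 in mut and somKO. Only 5 gamma members had CTCF in all 3 genotypes, 11 had it in 1 or 2 genotypes and 5 in none. In the alpha and beta clusters together a single member, Pcdha5, had CTCF in some genotypes and not in others.

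The mut list lacked CTCF at 5 of the 10 gamma promoters that had it in wt. These were Pcdhga1, Pcdhga2, Pcdhga3, Pcdhgb6 and Pcdhga11, and their wt percentiles lay between 33.0 and 57.9. Over all genes 6.58% of promoters with CTCF in wt lacked it in mut. In somKO all 10 gamma promoters with CTCF in wt still had it, against 4.07% lost over all genes.

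Pcdhgb2, Pcdhga6 and Pcdhga7 had CTCF in mut and not in wt, at percentiles 58.5, 51.5 and 61.9. Rad21 was listed in mut at the same 3 promoters, at percentiles 75.4, 72.3 and 86.2. Pcdhga7 was the member with the strongest gamma Rad21 peak in mut, and it had no peak of either protein in wt or somKO. The somKO list held CTCF at 5 gamma promoters without it in wt, those of Pcdhgb2, Pcdhga6, Pcdhgb4, Pcdhga8 and Pcdhgb5. Among all promoters without CTCF in wt, 11.2% had it in mut and 8.38% in somKO. The gamma cluster had 11 such promoters, of which 3 had CTCF in mut and 5 in somKO.

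Rad21 was also exchanged at gamma promoters. Of the 6 with Rad21 in wt, 3 lacked it in mut and 1 in somKO, against 4.80% and 1.61% over all genes. The 1 in somKO was Pcdhgc5, also among the 3 in mut, whose wt peak was near the bottom of its list, at percentile 7.44. The wt Rad21 peak at Pcdhga11 ranked at percentile 70.3, had no counterpart in mut and ranked at 70.3 in somKO. Pcdhga12, the last of the A-type genes, had no CTCF peak in any list and a weak Rad21 peak in somKO, at percentile 19.7. Pcdhga9, Pcdhga10 and Pcdhgc4 had no peak of either protein in any list.

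The C-type gamma genes were set apart from each other. Pcdhgc3 had both proteins in every genotype, with CTCF at percentile 59.0 for wt, 56.5 for mut and 70.7 for somKO, and with Rad21 at 73.8, 74.9 and 85.6. Pcdhgc4 had none, and Pcdhgc5, the last gamma gene, had a Rad21 peak in wt alone, at percentile 7.44. The strongest peak inside the gamma cluster lay in an interval, at chr18:37761157-37761930 in wt, with CTCF at percentile 90.6 in wt, 79.9 in mut and 93.5 in somKO. There the Rad21 peak ranked at 96.1, 94.5 and 98.7. It adjoins the start of Pcdhgb8, which GENCODE M21 annotates as a polymorphic pseudogene and which the rule therefore left out.

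Taking all classes, 53 wt CTCF peaks fell in the clusters, against 59 for mut and 65 for somKO. Promoter peaks made up 44, 45 and 51 of these, exon peaks 7, 11 and 11 and interval peaks 2, 3 and 3. For Rad21 the clusters held 33, 50 and 60 peaks, of which 24, 43 and 41 were at promoters. Exons held 3, 4 and 9 of the Rad21 peaks and intervals 6, 3 and 10. Merging each antibody's lists gave 67 CTCF sites in the clusters, of which 46 were in all 3 genotypes, and 69 Rad21 sites, of which 24 were. Over the whole lists 58.4% of merged CTCF sites and 41.9% of merged Rad21 sites were in all 3.

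The clusters held more listed Rad21 peaks in both SmcHD1-deficient genotypes than in wt. The log2 change in peak number against wt was 0.60 in mut (interval by counting error -0.03 to 1.23) and 0.86 in somKO (0.25 to 1.48). Over the rest of chromosome 18 the log2 change was -0.25 in mut and 0.58 in somKO, and over the whole lists -0.04 and 0.41. The cluster interval lay above the value for the rest of the chromosome in mut and included it in somKO. By cluster in mut it was 3.91 for alpha, from 1 to 15 peaks, 0.42 for beta and -0.35 for gamma. In somKO the values were 3.32 for alpha, from 1 to 10 peaks, 0.69 for beta and 0.58 for gamma. A change counted from a single wt peak is imprecise, as its interval of 0.99 to 6.83 in mut shows.

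Autosomal windows of the same length as the clusters together, 697 kb, served as a yardstick for those changes. Of 1342 windows with at least 20 wt Rad21 peaks, 40 had a larger log2 change than the clusters in mut, or 2.98%. In somKO 41 windows, or 3.06%, had a larger change. For CTCF the log2 change in the clusters was 0.15 in mut and 0.29 in somKO, and 17.1% and 23.7% of 1126 windows were above it. The change of CTCF peak number was therefore within the bulk of the windows in both genotypes, and that of Rad21 was in their upper part.

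**Figure D4:**
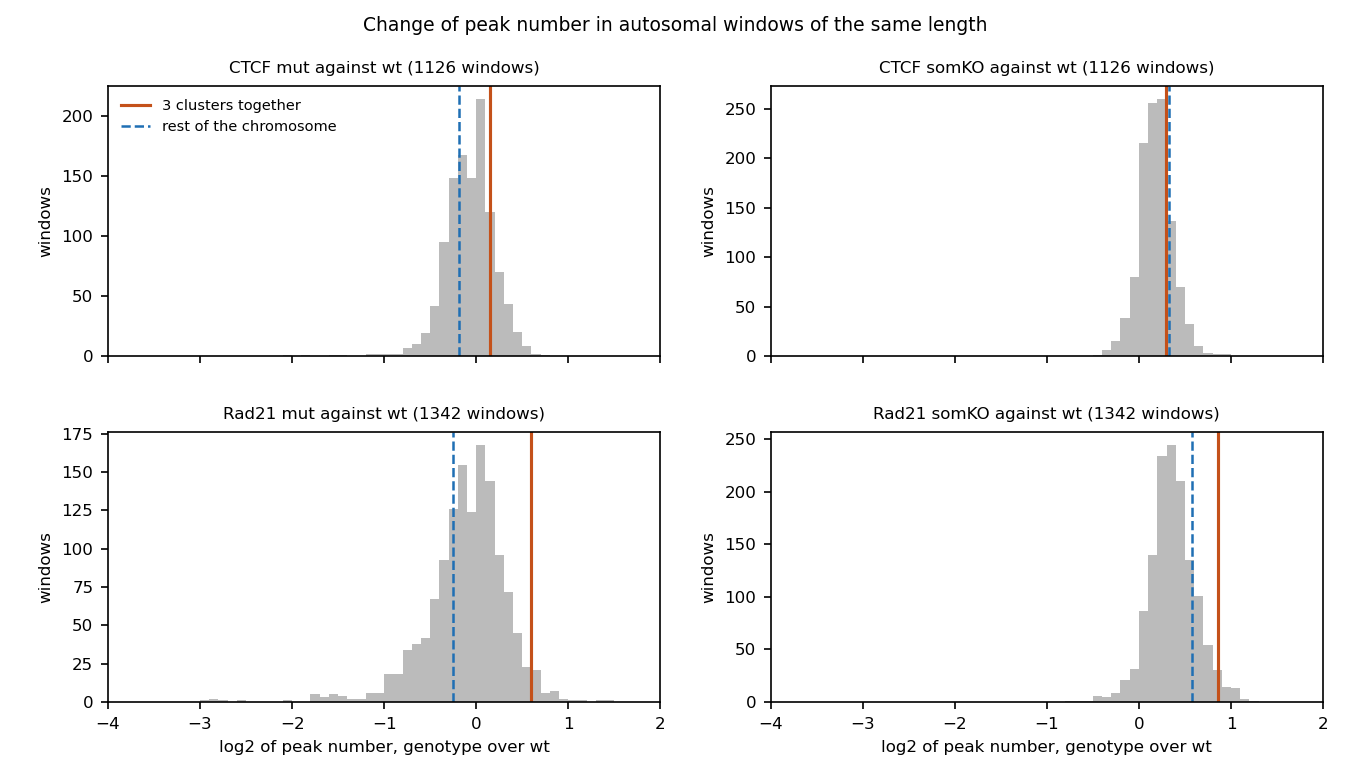
Histograms of the log2 change of peak number in autosomal windows of the same length as the clusters, for each antibody and genotype against wt; the solid line marks the clusters together and the dashed line the rest of the chromosome. The solid line stands at 0.60 and 0.86 for Rad21, towards the right end of the windows, and at 0.15 and 0.29 for CTCF, inside them.

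Gained and lost peaks were counted by overlap of at least 1 bp. In the clusters 25 of 50 Rad21 peaks in mut were gained (50.0%, interval 36.6 to 63.4%), against 27.2% of all mut Rad21 peaks. In somKO 30 of 60 were gained (50.0%, 37.7 to 62.3%), against 37.8% of all, a share at the lower end of the interval but within it. Of the gained Rad21 peaks in mut, 14 lay in the alpha cluster, 6 in the beta cluster and 5 in the gamma cluster. In somKO the numbers were 9, 12 and 9.

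Within the clusters the lost peaks were gamma peaks. Of the 33 wt Rad21 cluster peaks, 8 were lost in mut (24.2%, interval 12.8 to 41.0%). In somKO 1 was lost (3.03%, 0.537 to 15.3%). All of them lay in the gamma cluster, and the alpha cluster had only 1 wt Rad21 peak to lose. Over all wt Rad21 peaks 28.5% and 7.22% were lost, and each interval included its share. For CTCF 5 of the 53 wt peaks were lost in mut (9.43%, 4.10 to 20.3%), all of them gamma peaks. In somKO 0 were lost (0 to 6.76%). Over all wt CTCF peaks the lost shares were 19.7% and 7.63%. The mut interval included its share and the somKO interval lay below it. Gained CTCF peaks made up 13 of 59 in mut and 14 of 65 in somKO, or 22.0% and 21.5%. Over the whole CTCF lists the gained share was 16.8% in mut and 22.6% in somKO, and both cluster shares had intervals that included it.

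CTCF and Rad21 coincided less in the wt clusters than over the whole lists. In wt 27 of 53 CTCF peaks in the clusters overlapped a Rad21 peak (50.9%, interval 37.9 to 63.9%), against 67.6% of all CTCF peaks. In mut the share was 48 of 59 (81.4%, 69.6 to 89.3%), against 68.6%, and in somKO 47 of 65 (72.3%, 60.4 to 81.7%), against 74.4%. The alpha cluster accounted for much of the wt figure, with 1 of 13 CTCF peaks overlapping Rad21 in wt, 14 of 17 in mut and 10 of 16 in somKO. In the beta cluster the overlap was 18 of 26, 23 of 30 and 25 of 30.

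Read from the Rad21 side, most cluster peaks lay on CTCF. The share was 26 of 33 in wt (78.8%), 48 of 50 in mut (96.0%) and 46 of 60 in somKO (76.7%), against 58.9%, 58.4% and 54.9% of all Rad21 peaks. In the beta cluster 18 of 18 wt Rad21 peaks overlapped CTCF. The 7 wt Rad21 peaks without CTCF were all in the gamma cluster, at percentiles from 1.30 to 52.7. Of these, 6 lay from the promoter of Pcdhgc5 towards the shared exons, and 1 lay next to the strong peak at Pcdhgb8.

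The position of the promoter peaks differed by cluster. Midpoints of gamma CTCF peaks lay within 250 bp of a member start in 10 of 10 cases in wt, 8 of 8 in mut and 15 of 15 in somKO. For beta CTCF peaks this held for 21 of 21 in wt, with a median of -38 bp, and for 20 of 24 and 19 of 23 in mut and somKO. For alpha it held for 6 of 13, 5 of 13 and 6 of 13, with medians of 331, 257 and 480 bp downstream of the start. Rad21 midpoints at alpha promoters had medians of 184 bp in mut and 166.5 bp in somKO.

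**Figure D5:**
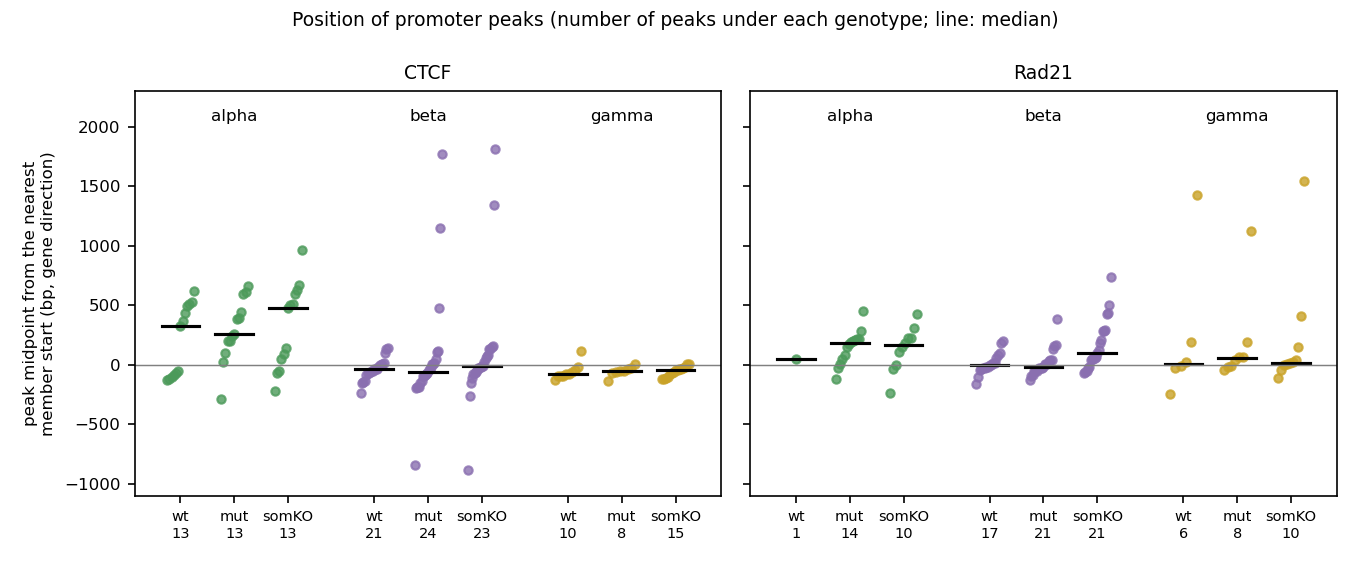
Distance of the midpoint of each promoter peak from the nearest member start (bp, positive in the direction of the gene), by cluster and genotype, for CTCF (left) and Rad21 (right); lines are medians and the numbers count peaks. Gamma CTCF peaks sit within 250 bp of the start, whereas alpha CTCF peaks reach 625 bp downstream in wt and 962 bp in somKO.

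The letters under the peaks also separated the clusters. The CTCF core pattern CCNNNAGNNGGC was searched on both strands of every CTCF peak, with N standing for any letter, and 54.0% of all wt peaks, 53.5% of mut peaks and 54.9% of somKO peaks held it. At alpha promoters it was found in 9 of 13 peaks in wt, 13 of 13 in mut and 12 of 13 in somKO, each time on the forward strand alone, the strand of the genes. Within 100 bp of the peak midpoint, a window of equal length in every list, it was found in 6, 5 and 6 of 13, so that the rise over wt was not seen there. At beta promoters 1 of 21 wt peaks held it and at gamma promoters 0 of 10. This says only that these letters were not in those peaks, since CTCF sites often depart from a fixed pattern.

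Outside the promoters matches lay on either strand. Before the alpha cluster 3 wt peaks held the pattern on the forward strand alone and 1 on both, and past the gamma cluster 4 held it on the forward and 5 on the reverse strand alone. Of the 7 wt CTCF peaks in member exons, 4 held the pattern on the reverse strand alone and 1 on both strands. The weaker CTCF site between the alpha and beta clusters held it on the reverse strand in all 3 lists, and the stronger site held no match in any of them. The strongest site in the Diaph1 introns held it on the reverse strand in all 3 lists, whereas another wt peak in a Diaph1 intron held it on the forward strand.

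Non-clustered protocadherins are the related adhesion genes outside the array. Of 12 such genes, 4 had CTCF at the promoter in wt, 4 in mut and 6 in somKO. The counts with Rad21 were 9, 6 and 9. Over all genes the shares were 30.8%, 36.5% and 35.3% for CTCF and 51.1%, 55.7% and 56.7% for Rad21. For these 12 genes the interval included the share of all genes in each of these lists. Pcdh1, Pcdh7, Pcdh9 and Pcdh18 had both proteins in every genotype, and Pcdh8, Pcdh12 and Pcdh20 had neither in any list. No gene of this list had CTCF without Rad21 in wt, so that the change seen at alpha promoters could not be looked for here. Pcdh15, Pcdh17 and Pcdh11x had Rad21 in wt and somKO but not in mut. Over all genes 4.80% of promoters with Rad21 in wt lacked it in mut.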

How the data were processed

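The 8 ChIP-seq peak lists analysed rest on 24 of the 52 libraries. Libraries of H3K27me3 and of input chromatin were not used here. Per the methods and labels, the authors aligned reads with Bowtie2 to mm10 with strain variants masked, merged the replicates of a group and called narrow peaks with MACS2 (q below 0.05) on reads of both alleles. The versions and the use of inputs in calling are not given in the sources used here. SmcHD1 and Rad21 chromatin was fixed with EGS and formaldehyde, CTCF chromatin with formaldehyde alone. The score deposited by the authors was taken to be -log10 of the q-value times 10, as inferred from a minimum of 13 in every list, and served only to rank or filter peaks within a list. List length depends on depth, which is unknown, and on the number of libraries merged.

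Genes were protein-coding in GENCODE M21 (GRCm38). GENCODE gives the symbol Pcdha11 to 2 genes, and the gene that RefSeq names Pcdha10 was called so. The members are near copies of each other, so that reads shared between them may have been lost in alignment, and whether such losses were equal between the clones was not tested. A promoter had a peak if at least 1 bp lay within 1 kb of a start of a coding transcript. Named members were the C-type genes, the first and last of each cluster, those with a peak in 1 or 2 genotypes (for Rad21 the 15 highest in percentile), those without CTCF in all 3 and those nearest SmcHD1 peaks. Pcdha7, Pcdha9, Pcdhb16, the Rad21 values of Pcdhga6 and Pcdhga11, and the peaks described between and beyond genes were named after their values were seen. Members, lists and rules were chosen with earlier results of these data known. Scripts used Python 3.11.15 with numpy, pandas and scipy, and were tested on simulated peaks. Alternatives were lists of equal length, a score of at least 50, other overlap and promoter rules, merging of close peaks, and percentiles of width.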

Additional observations from a re-analysis of the deposited data

Results flagged for a closer look

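The number of gamma promoters with a CTCF peak moved in opposite directions in the SmcHD1-deficient lists, from 10 in wt to 8 in mut and to 15 in somKO, a difference of 7 promoters between somKO and mut. It was picked out because mut lay below wt and somKO above it. The difference was not tested, since each genotype has 1 list, and somKO merged 4 CTCF libraries where wt and mut merged 3.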

How the results depend on the processing

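Over 67 results, 253 alternatives were run, of which 26 moved the value beyond its limits and the others stayed within them. Direction changed for the CTCF medians of Pcdhb12 to Pcdhb22 with lists of equal length. They moved from -0.39 to 1.49 points in mut and from 0.364 to -3.07 in somKO, within the limits of values close to 0. The order of genotypes also turned in other results. Cluster CTCF peaks with the core pattern were 30.2% in wt and 37.3% in mut, but 17.0% and 13.6% within 100 bp of the midpoint. Rad21 peaks on CTCF were 78.8% in wt and 76.7% in somKO, but 89.7% and 92.0% with scores of at least 50. The number of alpha promoters with Rad21 was 1, 14 and 10 in wt, mut and somKO under every alternative tried for it. Requiring an overlap of 50% of both peaks moved the gained share in the clusters to 50.8% (CTCF mut), 49.2% (CTCF somKO) and 76.7% (Rad21 somKO), and the lost share to 45.3%, 37.7% and 57.6%. The same rule moved the share of CTCF peaks on Rad21 to 61.0% in mut and 46.2% in somKO, and that of Rad21 peaks on CTCF to 72.0% and 50.0%. These peaks differ in width between lists, and a reciprocal rule counts such pairs as apart. With midpoints within 500 bp, the lost CTCF share in somKO was 9.43%, the Rad21 share on CTCF in mut 86.0% and the CTCF share on Rad21 in somKO 60%. With lists of equal length, the gained CTCF share in somKO was 12.1% and the Rad21 share on CTCF in somKO 91.8%. With scores of at least 50, the lost Rad21 share in somKO was 0%, and the Rad21 share on CTCF was 89.7% in wt and 92.0% in somKO. Percentiles of width gave cluster medians for Rad21 of 34.7 in wt and 50.2 in mut. For the change of CTCF rank at alpha promoters, alternatives chosen after seeing the data gave medians of 65.2 points in mut and 52.8 in somKO by width, and 23.7 in somKO with lists of equal length. Within 100 bp of the midpoint, 17.0%, 13.6% and 13.8% of cluster CTCF peaks held the core pattern in wt, mut and somKO. Apart from the construction of the overlap rule, the cause of these moves was not tested.

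No paired analysis was possible because each group has a single merged list, and leaving out a replicate was not run for the same reason. Read depth is unknown, and a site missing from a list is not shown to be unbound.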
